A study of Mus musculus with 4 samples.

Results

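The 10 genes below belong to the NF-kB system and were followed through 4 libraries of sorted heart cells titled as macrophages. They are the subunit genes Rela, Rel, Relb, Nfkb1 and Nfkb2, the IkB genes Nfkbia, Nfkbib, Nfkbie and Nfkbiz, and Tnfaip3, which encodes the ubiquitin-editing enzyme A20. They were chosen by name, and 9 of the 10 had a probe set, 1 each, among the 19505 named genes of the array, while Nfkb1 was not analysed here. The mice were wild-type C57BL/6N, 15 to 16 weeks old, called Ctrl-TAC in the study's design, and all had undergone transverse aortic constriction (TAC), surgery that raises the pressure load on the heart by narrowing the aorta. By flow cytometry, 4 populations, titled as Ccrl2, CD74, CD163 and Trem2 macrophages, were taken from a mixture of 6 hearts and hybridised to 1 array each. The title of the study concerns inflammatory CCRL2 macrophages of monocyte origin in heart failure. Source names put sampling 8 weeks after TAC and the growth protocol 1 week after it. CD9 stands in the source name of the library titled CD74, and Lyve1 stands in the growth protocol for the title CD163. No unoperated heart and no unsorted sample was analysed here, so every statement compares populations of operated hearts.

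NF-kB is a family of dimeric transcription factors that sit in the cytoplasm of resting macrophages, held there by IkB proteins. Signals from Toll-like, IL-1 and TNF receptors activate the IkB kinase (IKK), the IkB proteins are degraded, and the dimers enter the nucleus and switch on cytokine, chemokine and survival genes. Several genes of the system are themselves NF-kB targets, among them Nfkbia, Nfkbie, Nfkbiz and Tnfaip3, so that the pathway makes its own inhibitors, and in macrophages these transcripts are known to accumulate quickly after stimulation.

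Promoters of the members are given because 5 of 7 hold a kB-type motif near a start. Promoter sequences of RefSeq (build GRCm38.p6) were matched by symbol for 7 of the 10 genes, the others being Nfkb1, Relb and Nfkbiz. The motif searched was GGG and TTCC with any 3 bases between them, on both strands in the 250 bases before each start. It was chosen with the kB sites of this gene family in mind, and no 2 printed matches overlap. It occurred in Nfkbia, Tnfaip3, Nfkbie, Nfkb2 and Rel and not in Rela or Nfkbib, against 4.65% of all 32851 promoter windows and 5.31% of 27025 genes. The 120 bases before the most upstream listed start of each of the 5 genes are printed 5′ to 3′ on the gene's strand, with the matches in capitals.
Nfkbia, chr12:55492648-55492767 (- strand): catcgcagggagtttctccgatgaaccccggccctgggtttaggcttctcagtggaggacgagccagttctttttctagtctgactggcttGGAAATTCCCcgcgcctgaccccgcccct
Tnfaip3, chr10:19015411-19015530 (- strand): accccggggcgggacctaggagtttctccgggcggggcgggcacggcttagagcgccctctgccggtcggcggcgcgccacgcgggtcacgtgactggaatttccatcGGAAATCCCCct
Nfkbie, chr17:45555580-45555699 (+ strand): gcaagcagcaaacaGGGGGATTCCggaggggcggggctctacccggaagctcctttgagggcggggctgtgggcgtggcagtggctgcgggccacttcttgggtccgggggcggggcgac
Nfkb2, chr19:46304617-46304736 (+ strand): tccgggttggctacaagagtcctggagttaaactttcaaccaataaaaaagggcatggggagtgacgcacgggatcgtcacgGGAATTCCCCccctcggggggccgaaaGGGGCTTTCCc
Rel, chr11:23770970-23771089 (- strand): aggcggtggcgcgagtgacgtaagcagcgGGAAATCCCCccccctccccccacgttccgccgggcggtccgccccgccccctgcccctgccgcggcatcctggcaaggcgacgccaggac
The Nfkbia match lies at -29 to -20 from the start, that of Tnfaip3 at -12 to -3, that of Rel at -91 to -82 and that of Nfkbie at -106 to -97. Nfkb2 has matches at -38 to -29 and at -11 to -2. Tnfaip3 has a second listed start with a match at -90 to -81, and Nfkb2 has 2 further listed starts with 1 match each. A match describes these letters only, and binding was not measured.

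Levels below are the deposited log2 values. A library's background ceiling, the 95th percentile of its values for 1498 chemosensory receptor and keratin-associated protein genes, was 5.67 (Ccrl2), 6.53 (CD74), 6.28 (CD163) and 5.51 (Trem2), and 7454 (Ccrl2), 3621 (CD74), 4984 (CD163) and 8144 (Trem2) genes lay above it. A difference was called when it reached 2-fold (1 log2 unit) with the brighter value above its own ceiling and a value under a ceiling raised to it. With 1 library per population, no difference has a replicate error and no test was possible. Columns did not share a distribution, with 95th percentiles over all probe sets of 10.09 (Ccrl2), 8.45 (CD74), 9.06 (CD163) and 10.21 (Trem2), so directions are given with their result after quantile normalization, which puts all columns on 1 distribution and keeps only the rank of a gene. The scale ends at 19.93, and above a mean of 17 it was coarse: 51.0% of 51 genes repeated a value in a pair of libraries, against 2.82% of 9420 genes with a mean from 5 to 8. In such bulk arrays, fewer cells of a type and less RNA per cell cannot be told apart.

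Nfkbiz, Rel and Nfkbib carried the differences that held under every scaling tried. Nfkbiz had its highest level in the Ccrl2 library and its lowest in CD74, and Rel had its lowest level in CD163, both also after quantile normalization and median centring. Nfkbib ran in the order Ccrl2, Trem2, CD163 and CD74 under all 3 scalings. Rela, Nfkbia and Nfkbie had orders that turned with scaling, Tnfaip3 stood at the top of the scale, and Relb was not above background in any library.

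**Figure D1:**
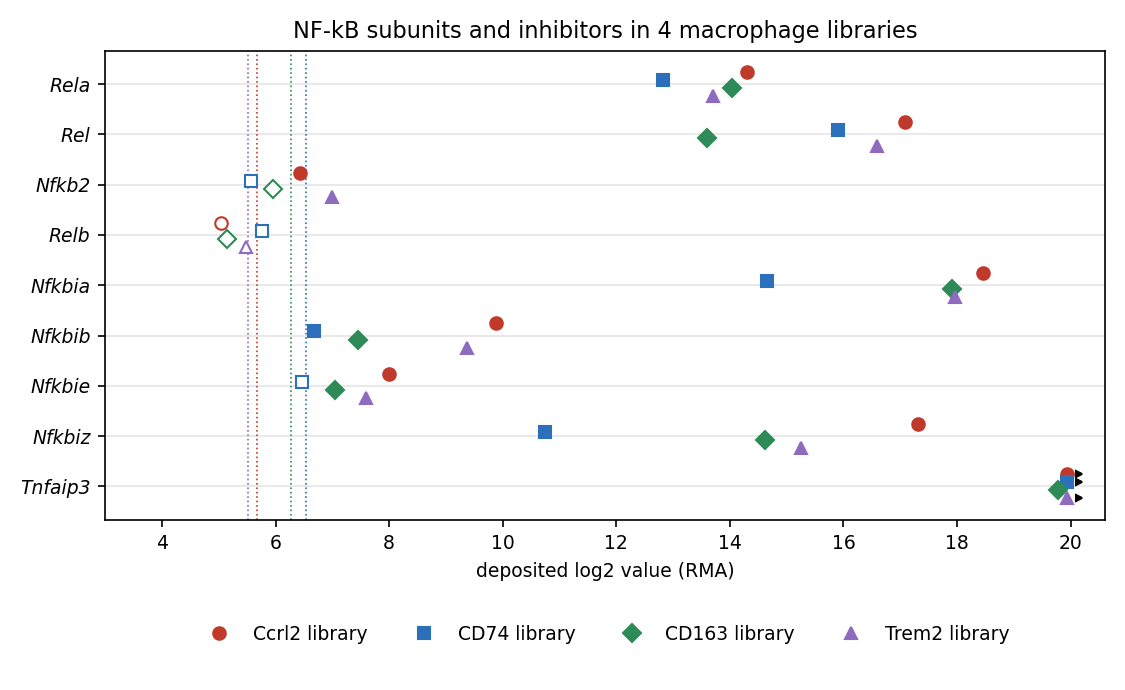
Deposited log2 value (horizontal axis) of the 9 measured genes (rows) in the Ccrl2, CD74, CD163 and Trem2 libraries (1 symbol each); open symbols lie under the library's background ceiling (dotted lines), and black arrowheads mark saturated values. Nfkbiz spreads most, between 10.74 in CD74 and 17.31 in Ccrl2, and Tnfaip3 sits at the top in each library.

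Among the subunits, Rela encodes p65, the transactivating partner of the classical NF-kB dimer. Rela had 14.30 in Ccrl2 and 12.83 in CD74, with 14.04 in CD163 and 13.70 in Trem2. It lay well over background everywhere and its range of 1.47 log2 units was under the median range of 1.72 over the 9346 genes that cleared background somewhere. The CD74 library was the lowest on deposited values, but the order turned after quantile normalization, to 13.32 (Ccrl2), 14.47 (CD74), 14.47 (CD163) and 12.87 (Trem2). The 2.77-fold excess of Ccrl2 over CD74 thus became a deficit (-1.14 on the log2 scale), and the deficit of CD74 against CD163 (-1.21) became 0. By rank, 208 (Ccrl2), 148 (CD74), 148 (CD163) and 242 (Trem2) genes of the same library lay at or above Rela.

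Rel encodes c-Rel, a subunit found mainly in blood cells and needed for lymphocyte activation. Rel had 17.08 in Ccrl2 and 15.90 in CD74, with 13.59 in CD163 and 16.59 in Trem2. CD163 stood apart below the other libraries, while CD74, on deposited values the lowest library for 6 of the 8 members above background, was not the lowest for Rel. Ccrl2 exceeded CD163 by 3.49 log2 units (11.2-fold), CD74 exceeded CD163 by 2.31 (4.96-fold) and CD163 lay under Trem2 (-3.0, 8.0-fold). These 3 differences were also called after quantile normalization, at 2.08, 4.08 and -1.70. The place of CD74 among the other libraries was not settled: it lay 1.18 under Ccrl2 on deposited values but came out highest after quantile normalization, at 15.99 in Ccrl2 and 17.99 in CD74, with 13.91 in CD163 and 15.61 in Trem2. In CD74, 50 genes lay at or above Rel, against 173 in CD163.

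B cell markers were, like Rel, lowest in CD163, as were 28.3% of the 9346 genes on deposited values. The sums of neutrophil, dendritic cell and fibroblast markers, given below, were lowest there too. By contrast, the summed level of T and NK cell markers was highest in CD74. In Ccrl2 and CD163 that sum came wholly or mostly from values under the ceiling, so the order of these libraries could not be read. Of 9 T and NK cell markers, 0 in Ccrl2 and 8 in CD74 were above the ceiling, as were 1 in CD163 and 7 in Trem2, and the log2 of their summed linear level was 8.03 (Ccrl2), 13.92 (CD74), 8.57 (CD163) and 10.82 (Trem2). Of 5 B cell markers, 4 (Ccrl2), 4 (CD74), 1 (CD163) and 5 (Trem2) were above the ceiling, with 10.24 (Ccrl2), 10.98 (CD74), 7.43 (CD163) and 12.39 (Trem2) for the same sum. Pax5, a defining B cell factor, was above background in Ccrl2 (6.88), CD74 (6.84) and Trem2 (8.17) and under the ceiling in CD163 (4.09), and Cd3e, of the T cell receptor, was above it only in CD74 (9.50). Cd2 and Ncr1 were higher in Trem2 (7.55 and 7.42) than in CD74 (6.95 and 6.48, that of Ncr1 under the ceiling). After quantile normalization this held for Ncr1 only. The part of these cells in the Rel values was not tested.

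The remaining subunits belong to the non-canonical branch. Nfkb2, which encodes the p100 precursor of p52, had 6.43 in Ccrl2 and 5.56 in CD74, with 5.95 in CD163 and 7.00 in Trem2. Only Ccrl2 and Trem2 lay above their ceilings, and no pair was called for Nfkb2. Taking the deposited values as they stand, without raising them to a ceiling, Nfkb2 in Trem2 was more than 2-fold over CD74 (-1.44 for CD74 over Trem2) and over CD163 (-1.05). Relb, the p52 partner, had 5.04 (Ccrl2), 5.77 (CD74), 5.15 (CD163) and 5.48 (Trem2) and was under the ceiling in every library, nearest to it in Trem2 (-0.03 log2 units from it, against -0.63 in Ccrl2, -0.76 in CD74 and -1.13 in CD163). No difference of Relb could be read.

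Among the inhibitors, Nfkbia encodes IkB-alpha, the fast-turnover inhibitor that returns the dimers to the cytoplasm. Nfkbia had 18.45 in Ccrl2 and 14.66 in CD74, with 17.91 in CD163 and 17.96 in Trem2. The CD74 value stood below the others (-3.25 against CD163 and -3.30 against Trem2), and Ccrl2, CD163 and Trem2 lay within 2-fold of each other in the coarse part of the scale. The 13.8-fold excess of Ccrl2 over CD74 (3.79) shrank to 0.78 after quantile normalization, where the 4 values were 17.40 (Ccrl2), 16.62 (CD74), 17.62 (CD163) and 17.17 (Trem2), and no Nfkbia pair was called. CD74 over CD163 stood at -1.0 there, just short of the threshold. CD74 was the lowest library under each scaling, and 63 (Ccrl2), 80 (CD74), 59 (CD163) and 70 (Trem2) genes of the same library lay at or above Nfkbia.

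Nfkbib encodes IkB-beta, a slower inhibitor. Nfkbib had 9.88 in Ccrl2 and 6.67 in CD74, with 7.46 in CD163 and 9.37 in Trem2, the CD74 value only 0.14 over its ceiling. Ccrl2 and Trem2 formed the high side and CD74 and CD163 the low side. Ccrl2 was 9.25-fold above CD74 and 5.35-fold above CD163, and both differences were also called after quantile normalization (1.92 and 1.30 log2 units). CD74 lay 6.5-fold under Trem2, called as well after quantile normalization (-1.37), while the 3.76-fold deficit of CD163 against Trem2 fell short of 2-fold there (-0.75). Nfkbib is a member without a motif match in its promoter window.

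Nfkbie encodes IkB-epsilon, an inhibitor of dimers with p65 and c-Rel. Nfkbie had 8.00 in Ccrl2 and 6.47 in CD74, with 7.04 in CD163 and 7.59 in Trem2, the CD74 value under its ceiling. Its steps were small, with Ccrl2 at least 2.77-fold above CD74, CD74 at least 2.08-fold under Trem2 and Ccrl2 1.95-fold above CD163. After quantile normalization the first 2 of these were 0.52 and -0.10 log2 units and no Nfkbie pair was called.

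Nfkbiz encodes IkB-zeta, a nuclear IkB that works as a coactivator for secondary response genes such as Il6 and Lcn2. Nfkbiz had 17.31 in Ccrl2 and 10.74 in CD74, with 14.62 in CD163 and 15.25 in Trem2. Ccrl2 was separate at the top and CD74 separate at the bottom, and the range of 6.57 log2 units (95-fold) exceeded that of 98.9% of the genes above background. Ccrl2 exceeded Trem2 by 2.06 (4.17-fold), the only member called in that pair, CD163 by 2.69 (6.45-fold) and CD74 by 6.57. After quantile normalization these were 1.97, 1.44 and 4.28, all still called. CD74 was 14.7-fold below CD163 and 22.8-fold below Trem2, at -2.84 and -2.30 after quantile normalization. CD163 and Trem2 did not differ by 2-fold (-0.63), and their order turned after quantile normalization, with 14.92 in CD163 and 14.38 in Trem2. By rank, 88 (Ccrl2), 317 (CD74), 132 (CD163) and 151 (Trem2) genes lay at or above Nfkbiz.

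Tnfaip3 had 19.93 in Ccrl2 and 19.93 in CD74, with 19.78 in CD163 and 19.93 in Trem2. It was saturated in 3 libraries and lay next to the end of the scale in CD163, with 23 (Ccrl2), 9 (CD74), 19 (CD163) and 20 (Trem2) genes at or above it. In CD74, where only 9 genes were saturated and Nfkbia, Nfkbie and Nfkbiz lay lowest, Tnfaip3 was among those 9. The array could therefore not show a difference of A20 transcript between the populations, and a fold could not be given for any pair of saturated values.

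**Figure D2:**
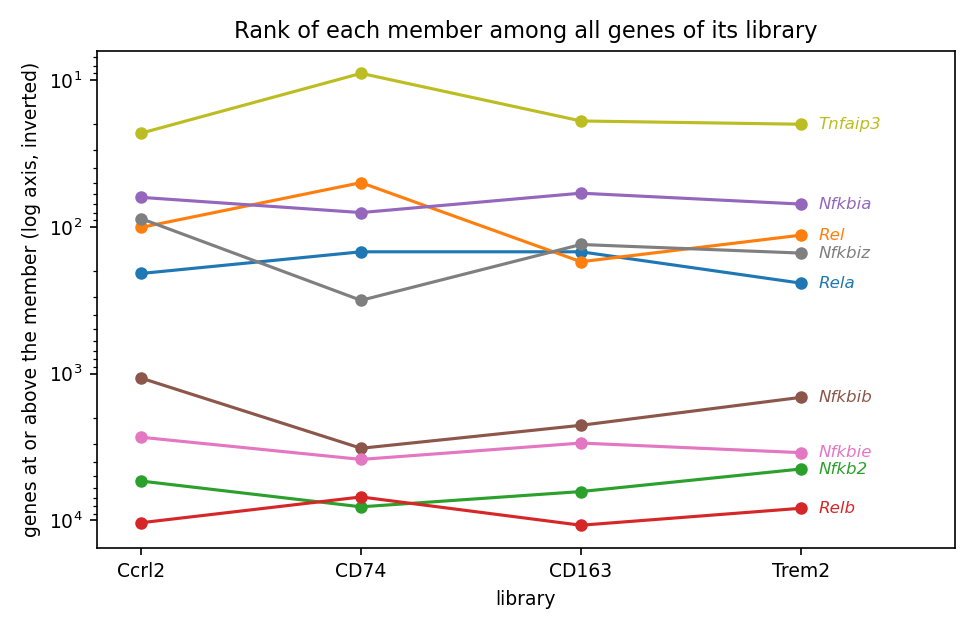
Number of genes of the same library at or above each member (vertical log axis, inverted so that high ranks are on top) in the Ccrl2, CD74, CD163 and Trem2 libraries, 1 line per gene. Nfkbiz dips in CD74 (317 genes at or above it), Rel peaks there (50), and Tnfaip3 stays among the first 23 genes; saturated values share a rank, and Relb lies under background.

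Counted over all members, 20 of 54 comparisons of a member in a pair of libraries were called on deposited values. The 54 include every pair of Relb, and Nfkb2 in CD74 over CD163, where both values lay under their ceilings and no call was possible. Of all genes compared, 5.43% to 32.0% were called higher and 5.03% to 32.6% lower, depending on the pair. After quantile normalization these shares were 3.77% to 21.5% and 4.25% to 20.9%. Of these 20, 11 were called the same way after quantile normalization and median centring, 7 lost their call after quantile normalization and 2 turned. The share of calls of all genes kept in this way was not counted, so the 11 have no background beside them. A further 4, all of Rel or Rela, were called after quantile normalization and not on deposited values. For Rela in CD74 over Trem2 the scalings opposed each other, with 1.60 after quantile normalization and -1.02 after median centring. The 11 were 5 pairs of Nfkbiz, 3 of Rel and 3 of Nfkbib. Pairs that share a library share its values and are given side by side.

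Between Ccrl2 and CD74, 6 of 8 members compared were higher in Ccrl2 (Rel, Rela, Nfkbia, Nfkbib, Nfkbie and Nfkbiz) and 0 lower. Of all 7902 genes compared, 32.0% were called higher and 7.8% lower. The median difference on deposited values was 1.5 over the members and 0.96 over all genes. On deposited values Ccrl2 was the highest library for 6 of the 8 members above background and CD74 the lowest for 6 of 8, against 31.5% and 47.8% of the 9346 genes. After quantile normalization Ccrl2 was the highest for 3 of 8 and CD74 the lowest for 5 of 8, against 22.9% and 39.5%. After quantile normalization 2 members were higher (Nfkbib and Nfkbiz) and 2 lower (Rel and Rela), beside 11.6% and 20.9% of all genes.

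Between Ccrl2 and CD163, 3 of 8 members were higher in Ccrl2 (Rel, Nfkbib and Nfkbiz) and 0 lower, against 28.1% and 5.03% of 7891 genes, a share near the background. The medians were 0.75 over the members and 0.69 over all genes. After quantile normalization the same 3 were higher and Rela was lower, beside 9.07% and 13.8% of all genes. Between Ccrl2 and Trem2, 1 of 8 members was higher in Ccrl2, Nfkbiz, and 0 lower, against 5.43% and 7.92% of 8773 genes. Here 7 of the 8 members lay above the median of all genes, at a median of 0.49 against -0.08, each of them but Nfkbiz within 2-fold, and Tnfaip3 with both values saturated. After quantile normalization Nfkbiz was still the only member called, beside 3.77% and 4.25% of all genes.

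Between CD74 and CD163, Rel was higher in CD74 and Rela, Nfkbia and Nfkbiz were lower, of 7 members compared, against 9.98% and 19.3% of 5842 genes. The medians were -0.79 over the members and -0.47 over all genes. After quantile normalization Rel was still higher and Nfkbiz still lower, beside 21.5% and 15.5% of all genes. Between CD74 and Trem2, 0 of 8 members were higher in CD74 and 4 lower (Nfkbia, Nfkbib, Nfkbie and Nfkbiz), against 7.62% and 32.6% of 8522 genes, with medians of -1.28 and -1.01. After quantile normalization Rel and Rela were higher in CD74 and Nfkbib and Nfkbiz lower, beside 18.6% and 9.86% of all genes. Between CD163 and Trem2, 0 of 8 members were higher in CD163 and 2 lower (Rel and Nfkbib), against 6.07% and 27.6% of 8532 genes, again near the background, with medians of -0.59 and -0.69. After quantile normalization Rel was still lower in CD163 and Rela was higher, beside 15.6% and 9.68% of all genes.

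**Figure D3:**
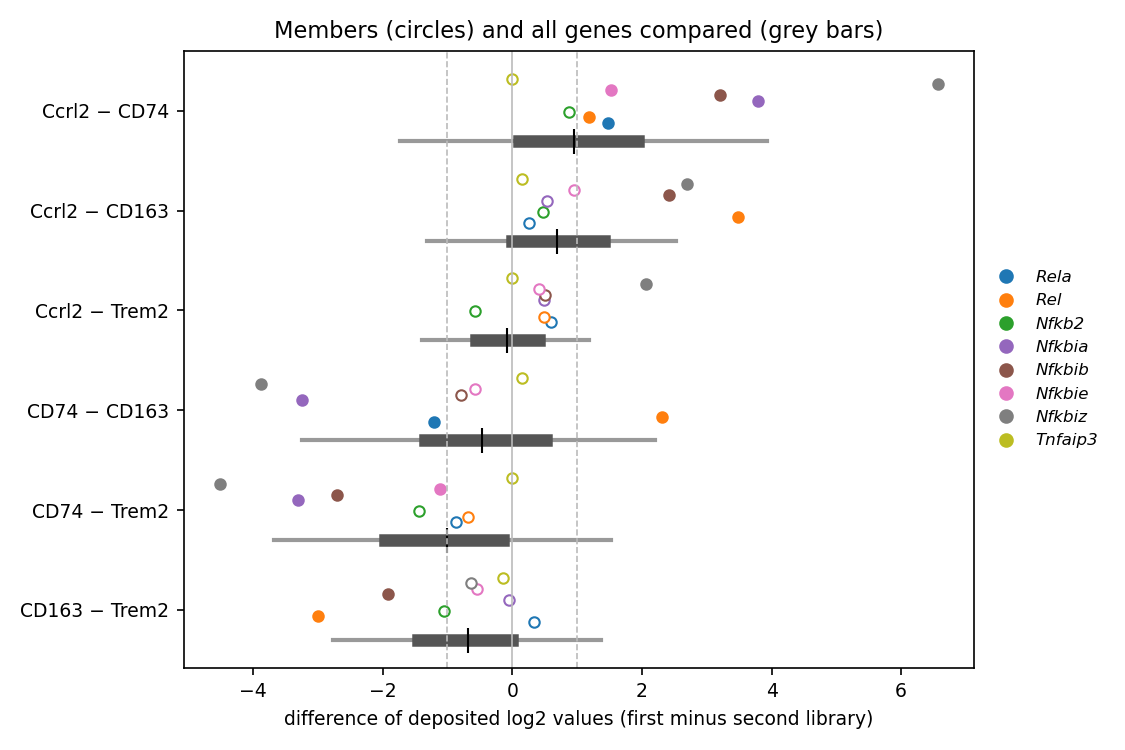
Difference of deposited log2 values between the first and second library of each pair (rows) for the members (circles, filled where called with values under a ceiling raised to it, dashed lines at 2-fold) over all genes compared (grey bars: thin from the 5th to the 95th percentile, thick for the middle quartiles, tick at the median). Nfkbiz lies furthest right in Ccrl2 over CD74 (6.57), and Rel lies on the opposite side from Nfkbiz and Nfkbia in CD74 over CD163.

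The rest of the pathway was read from 4 lists, which hold none of the members. In the list of IKK and upstream kinases, the catalytic subunit gene Ikbkb had 5.88 in Ccrl2 and 4.46 in CD74, with 4.53 in CD163 and 5.56 in Trem2, above background in Ccrl2 and Trem2 by little. Ikbkg, the regulatory subunit NEMO, was under the ceiling in all 4 libraries, at 4.24 (Ccrl2), 4.55 (CD74), 4.47 (CD163) and 4.94 (Trem2), and Chuk was not analysed here. Tank, an adaptor that restrains receptor signalling to NF-kB, had 14.55 (Ccrl2), 7.42 (CD74), 12.08 (CD163) and 11.89 (Trem2), highest in Ccrl2 and lowest in CD74 also by quantile-normalized values. Map3k8, the kinase TPL2 that is held by the p105 precursor, had 9.28 (Ccrl2), 5.50 (CD74, under the ceiling), 7.92 (CD163) and 8.28 (Trem2). Tab2, an adaptor of the kinase TAK1, had 10.02 (Ccrl2), 7.83 (CD74), 7.33 (CD163) and 10.04 (Trem2). Tbk1, an IKK-related kinase, had 8.71 (Ccrl2), 6.72 (CD74), 8.75 (CD163) and 9.28 (Trem2), with CD163 the highest after quantile normalization. Of 8 genes of this list compared, 4 were higher and 0 lower in Ccrl2 over CD74, beside 32.0% and 7.8% of all genes. In Ccrl2 over CD163 they were again 4 and 0 of 8, beside 28.1% and 5.03%. After quantile normalization each pair had 2 higher and 1 lower, beside 11.6% and 20.9% of all genes for CD74 and 9.07% and 13.8% for CD163.

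Among receptor adaptors and ligases, Birc3, which encodes the ubiquitin ligase cIAP2 and is an NF-kB target itself, had 16.00 in Ccrl2 and 12.67 in CD74, with 13.31 in CD163 and 15.32 in Trem2. Its relative Birc2 had 8.45 and 8.07 in Ccrl2 and Trem2 and was under the ceiling in CD74 (5.85) and CD163 (5.68). Irak2, a kinase that prolongs Toll-like receptor signalling, had 9.67 (Ccrl2), 7.22 (CD74), 6.21 (CD163) and 8.03 (Trem2), the CD163 value under the ceiling. Irak3, the inhibitory IRAK-M, had 9.54 (Ccrl2), 6.57 (CD74), 6.74 (CD163) and 10.32 (Trem2). Ccrl2 and Trem2 thus lay above CD74 and CD163 for each of these 4 genes, an order that after quantile normalization held for Birc2, Birc3 and Irak3 but not for Irak2, where CD74 had 8.02 and Trem2 7.48. Over CD74, 4 of 12 adaptor genes were higher in Ccrl2 and 1 lower, a share near the background of 32.0% and 7.8%. Over CD163, 5 of 11 were higher and 0 lower, beside 28.1% and 5.03% of all genes. After quantile normalization the balance turned in Ccrl2 over CD74, to 1 higher and 5 lower beside 11.6% and 20.9% of all genes, and was 5 higher and 1 lower in Ccrl2 over CD163, beside 9.07% and 13.8%.

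Among the other IkB proteins and regulators, Nfkbid, which encodes the nuclear IkB-NS, had 13.02 in Ccrl2 and 8.31 in CD74, with 10.61 in CD163 and 12.71 in Trem2. As with Nfkbiz, the top was Ccrl2 and the bottom CD74, also after quantile normalization, but Ccrl2 and Trem2 lay within 2-fold. Tax1bp1, a partner of A20, had 10.18 (Ccrl2), 9.67 (CD74), 6.07 (CD163, under the ceiling) and 10.41 (Trem2), and like Rel was lowest in CD163 and, after quantile normalization, highest in CD74 (11.03). Tnip3, an A20-binding inhibitor, had 9.34 (Ccrl2), 7.41 (CD74), 7.64 (CD163) and 8.77 (Trem2), and Itch, a ubiquitin ligase that works with A20, had 8.22 (Ccrl2), 6.37 (CD74, under the ceiling), 6.56 (CD163) and 8.94 (Trem2). Of 14 genes of this list, 4 were higher and 0 lower in Ccrl2 over CD74, no more than the 32.0% of all genes called higher. In Ccrl2 over CD163, 7 were higher and 0 lower, beside 28.1% and 5.03% of all genes, and in Ccrl2 over Trem2 0 were called. Quantile normalization turned the count in Ccrl2 over CD74 to 1 higher and 3 lower, near the 11.6% and 20.9% of all genes, and gave 2 and 2 in Ccrl2 over CD163, beside 9.07% and 13.8%. In CD163 over Trem2, 0 regulators were higher and 8 lower, beside 6.07% and 27.6% of all genes. There quantile normalization left 2 higher and 3 lower, beside 15.6% and 9.68%, the higher share near the background.

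Target genes of NF-kB were the list with the widest steps. Tnf had 18.78 in Ccrl2 and 5.55 (under the ceiling) in CD74, with 15.38 in CD163 and 15.04 in Trem2. Cd83, an activation marker, had 19.35 (Ccrl2), 9.41 (CD74), 15.36 (CD163) and 17.11 (Trem2), and the inflammasome sensor gene Nlrp3 had 14.75 (Ccrl2), 5.26 (CD74, under the ceiling), 8.89 (CD163) and 12.91 (Trem2). The chemokine gene Ccl4 had 18.46 (Ccrl2), 10.82 (CD74), 17.51 (CD163) and 18.46 (Trem2). The equal values of Ccrl2 and Trem2 lay in the coarse part of the scale, where a difference may not show. Of 24 targets compared, 18 were higher and 0 lower in Ccrl2 over CD74, beside 32.0% and 7.8% of all genes. In Ccrl2 over CD163 they were 16 and 0, beside 28.1% and 5.03%, and in Ccrl2 over Trem2 10 and 4, beside 5.43% and 7.92%. After quantile normalization these counts were 15 and 3 (all genes 11.6% and 20.9%), 11 and 1 (9.07% and 13.8%), and 10 and 4 (3.77% and 4.25%). The median target difference on deposited values was 4.10 in Ccrl2 over CD74 and 1.84 in Ccrl2 over CD163, against 0.96 and 0.69 over all genes. In CD74 over Trem2, 1 target was higher and 21 lower, beside 7.62% and 32.6% of all genes. Quantile normalization left 1 and 16, beside 18.6% and 9.86%. CD74 was the lowest library for Tnf, Cd83, Nlrp3 and Ccl4 under both of these scalings, while its Tnfaip3 value was saturated. These 4 were named for the largest differences in the list, each in Ccrl2 over CD74. A low CD74 value was thus part of their choice. Other targets did not follow: after quantile normalization CD74 was the highest library for Il1b (18.34), Ccl5 (12.29), Cd40 (7.51) and Marcksl1 (7.43). On deposited values it was not the highest for any of these.

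**Figure D4:**
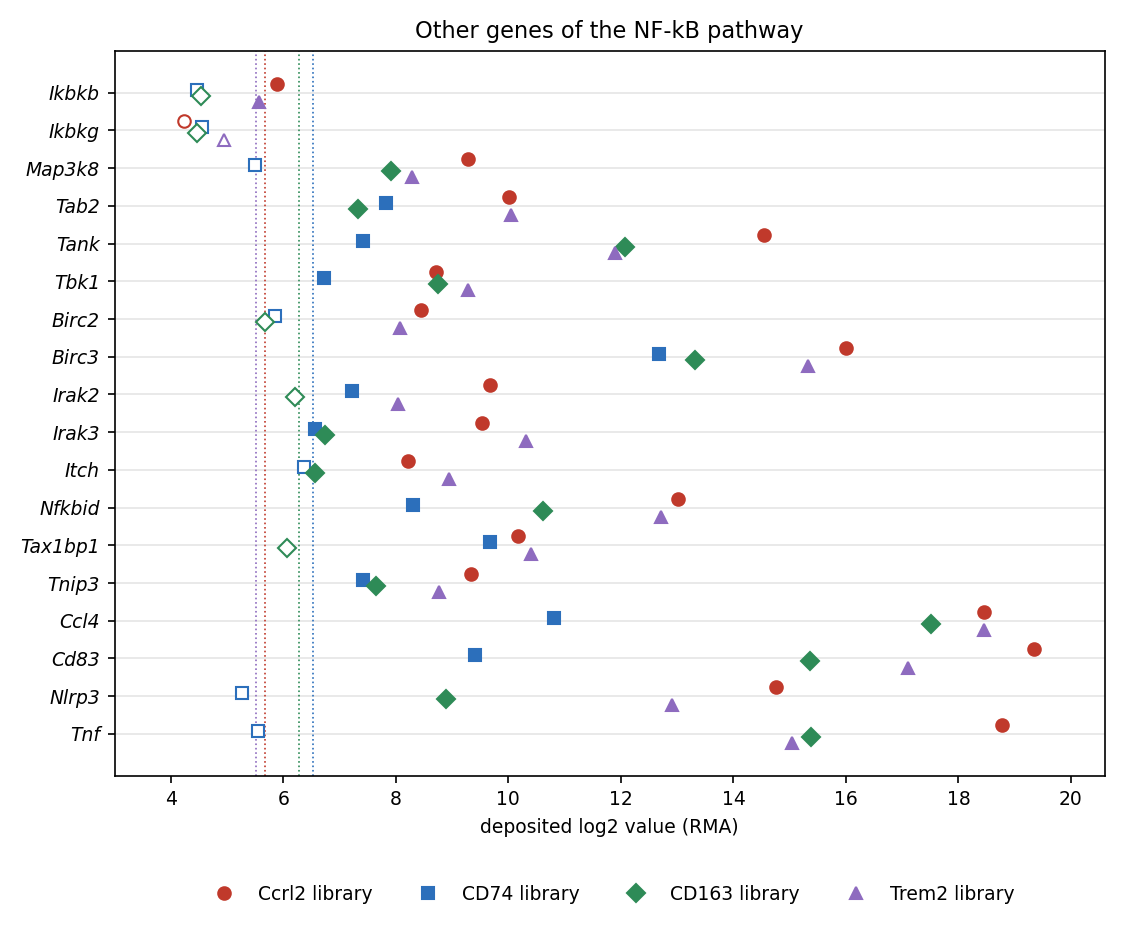
Deposited log2 value (horizontal axis) of 18 other pathway genes (rows, by list: kinases, adaptors and ligases, other IkB proteins and regulators, targets) in the Ccrl2, CD74, CD163 and Trem2 libraries; open symbols lie under the library's ceiling (dotted lines). CD74 is the lowest library for Tnf (5.55), Nlrp3 (5.26), Cd83 (9.41) and Ccl4 (10.82), which were named for their large differences between Ccrl2 and CD74.

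**Figure D5:**
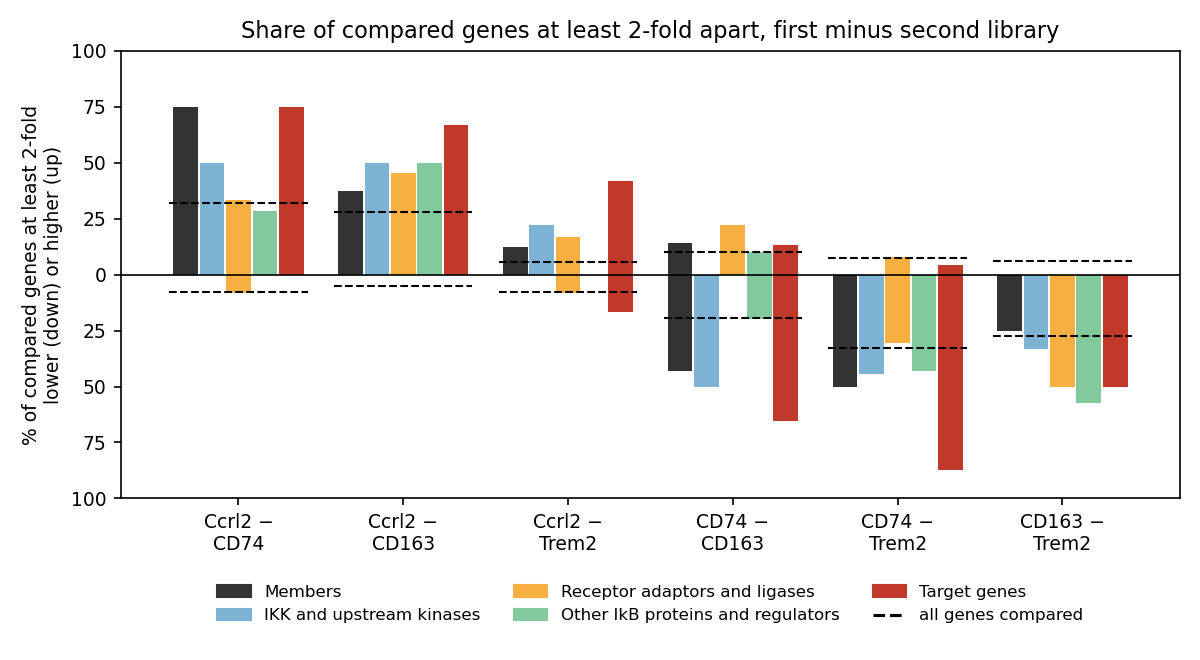
Share of compared genes at least 2-fold higher (upward bars) or lower (downward bars) in the first library of each pair, for the members and the 4 pathway lists, with the share of all genes compared as dashed lines. The bars of the target genes reach furthest in the pairs of CD74 with Ccrl2 (18 of 24 higher in Ccrl2) and with Trem2 (21 of 24 lower in CD74).

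Markers of other cell types were above the ceiling in each of the 4 libraries, in differing number and level. Of 8 macrophage markers, 8 (Ccrl2), 5 (CD74), 8 (CD163) and 8 (Trem2) were above the ceiling, with a log2 summed level of 21.36 (Ccrl2), 18.06 (CD74), 21.12 (CD163) and 21.24 (Trem2). Mertk (3.90), Fcgr1 (5.12) and Cx3cr1 (5.13) were under the ceiling in CD74, where Csf1r had 9.40 against 18.60 or more elsewhere. Spi1 (17.70), Lyz2 (15.86), Adgre1 (9.66) and C5ar1 (7.12) were above it in CD74. After quantile normalization the log2 summed level was 20.79 (Ccrl2), 19.77 (CD74), 20.91 (CD163) and 20.92 (Trem2). Spi1 then had 18.91 (Ccrl2), 19.26 (CD74), 19.34 (CD163) and 19.10 (Trem2), while the other macrophage markers were lowest in CD74. The summed level of the T and NK cell markers, given beside Rel, was highest in CD74. The macrophage name of the CD74 library is that of its title, which its own markers bear out less than those of the other libraries. Of 6 neutrophil markers 4 (Ccrl2), 4 (CD74), 1 (CD163) and 6 (Trem2) were above the ceiling, with a log2 summed level of 9.85 (Ccrl2), 9.58 (CD74), 8.55 (CD163) and 17.15 (Trem2), highest in Trem2. Of 6 dendritic cell markers 2 (Ccrl2), 2 (CD74), 1 (CD163) and 2 (Trem2) were above the ceiling, with summed levels of 11.46 (Ccrl2), 14.98 (CD74), 10.11 (CD163) and 11.75 (Trem2), led by Ccr7 at 11.38 (Ccrl2), 14.97 (CD74), 9.94 (CD163) and 11.68 (Trem2). The markers Flt3, Zbtb46, Xcr1 and Clec9a were under the ceiling in all 4. Of 5 fibroblast markers 5 (Ccrl2), 2 (CD74), 2 (CD163) and 5 (Trem2) were above the ceiling and of 5 endothelial markers 4 (Ccrl2), 1 (CD74), 2 (CD163) and 4 (Trem2), with log2 summed levels of 12.94 (Ccrl2), 8.92 (CD74), 8.73 (CD163) and 12.83 (Trem2), and of 11.46 (Ccrl2), 8.30 (CD74), 8.63 (CD163) and 11.82 (Trem2). These sums were, like Nfkbib, highest in Ccrl2 and Trem2, also after quantile normalization. Such an order was common: Ccrl2 was the highest library for 31.5% and Trem2 for 38.5% of the 9346 genes (22.9% and 23.3% after quantile normalization). Single markers differed. The fibroblast sum was carried by Dcn, at 12.65 (Ccrl2), 4.71 (CD74, under the ceiling), 7.01 (CD163) and 12.67 (Trem2). Col1a1 had 7.92 (Ccrl2), 7.87 (CD74), 6.82 (CD163) and 6.91 (Trem2), and was highest in CD74 (8.89) and lowest in Trem2 (6.58) after quantile normalization. Col1a2 and the endothelial Pecam1 also turned in part, with Col1a2 at 7.31 in CD74 and 6.57 in Trem2, and Pecam1 at 7.30 in Ccrl2 and 7.68 in CD74. The part of these cells in the members' values was not tested. Among the sort marker genes, Ccrl2 had 16.58 (Ccrl2), 9.58 (CD74), 14.00 (CD163) and 16.59 (Trem2), and Trem2 had 7.17 (Ccrl2), 5.94 (CD74, under the ceiling), 6.71 (CD163) and 7.20 (Trem2), each about equal in the Ccrl2 and Trem2 libraries. Cd163 had 13.01 (Ccrl2), 4.96 (CD74, under the ceiling), 14.51 (CD163) and 13.11 (Trem2), and Lyve1 had 13.88 (Ccrl2), 5.56 (CD74, under the ceiling), 19.93 (CD163, saturated) and 14.32 (Trem2), both highest in the CD163 library. Cd9 had 10.79 (Ccrl2), 8.69 (CD74), 9.35 (CD163) and 11.65 (Trem2), lowest in the CD74 library on deposited values but in CD163 after quantile normalization, with 9.99 (Ccrl2), 9.95 (CD74), 9.78 (CD163) and 10.68 (Trem2). Cd74 was not analysed here.

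On deposited values, the median over the 8 members above background, each centred on its mean over the 4 libraries, was 0.97 in Ccrl2 and -0.85 in CD74, with -0.17 in CD163 and 0.74 in Trem2. It includes Tnfaip3, whose flat profile comes from values at the top of the scale. The profile was not computed after quantile normalization, which kept the library order of 2 of 9 members. Among 2620 genes outside the members and lists that lay above the ceiling in all 4 libraries and were not saturated, those with the smallest root mean square difference from the median profile over the 4 libraries were Lactb2 (0.176), Chchd3 (0.182), Tent4b (0.185), Babam1 (0.187) and Ankrd40 (0.188). Lactb2, the nearest, had 8.50 in Ccrl2 and 6.67 in CD74, with 7.30 in CD163 and 8.17 in Trem2. The members themselves lay between 0.25 (Nfkbie) and 1.73 (Nfkbiz) from the median profile, so that Nfkbiz, Rel (1.13) and Nfkbia (0.97) were the least like it on deposited values.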

How the data were processed

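The data were 4 mouse Clariom S arrays, 1 per sorted population. Per the labels' protocols, the authors reverse transcribed and amplified total RNA with a pico-input whole-transcript kit and background-corrected, normalized and summarised the arrays by robust multichip average (RMA). Agilent GeneSpring is named there too, and Affymetrix Expression Console is named in the submitters' processing notes. For RMA options and the annotation's build, nothing is given in the sources used. Because the 4 columns did not share a distribution, it cannot be told whether the arrays were normalized together, and folds of deposited values carry that limit. Values deposited by the authors are on a log2 scale per probe set, as read from their range of 2.97 to 19.93. They are array signals, so precision is limited by the number of arrays.

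The platform annotation gave a single symbol to 19572 of 28846 probe sets. For 55 genes with several, the probe set with the highest mean over the 4 columns was used. Values within 0.015 of the top were treated as saturated. Calls needed 2-fold, as described above. A value under its ceiling was raised to the ceiling, and where that ceiling lay above the brighter value the difference was set to 0. The calling rule was tested on simulated data. Alternatives were quantile normalization, median centring, no ceiling, a ceiling at the library median, unraised dim values, the mean over probe sets, and 1.5-fold and 4-fold thresholds. The members, lists and comparisons were chosen with earlier results of these data known. Named were all members, up to 4 genes per list with the largest difference, Ikbkb and Ikbkg, the sort markers and the 5 genes nearest to the members' median profile. Other marker genes named (Pax5, Cd3e, Mertk, Fcgr1, Cx3cr1, Csf1r, Ccr7, Flt3, Zbtb46, Xcr1, Clec9a, Dcn, Col1a1, Col1a2 and Pecam1) were picked after their values were seen. So were the markers Spi1, Lyz2, Adgre1, C5ar1, Cd2 and Ncr1 and the targets Il1b, Ccl5, Cd40 and Marcksl1. Python 3.11.15, numpy 2.4.6 and pandas 2.3.3 were used.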

Additional observations from a re-analysis of the deposited data

How the results depend on the processing

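With 1 library per population there is no error, so a setting shows only how a value moves. Quantile normalization reversed 2 member differences of Ccrl2 over CD74, Rel at -2.0 (1.18 as deposited) and Rela at -1.14 (1.47 as deposited), and gave 2 members called in CD74 over CD163 in place of 4. It kept the order of the 4 libraries for 2 of 9 members, Nfkb2 and Nfkbib, and median centring for 7. A 1.5-fold threshold gave 2 members called in Ccrl2 over Trem2 in place of 1 and 4 in CD163 over Trem2 in place of 2. A 4-fold threshold gave 3 in Ccrl2 over CD74 in place of 6 and 1 in CD163 over Trem2 in place of 2. Other totals over both directions stayed within 1.5 times, but quantile normalization shifted their split: 2 higher and 2 lower in Ccrl2 over CD74 in place of 6 and 0, 2 and 2 in CD74 over Trem2 in place of 0 and 4, 1 and 1 in CD163 over Trem2 in place of 0 and 2, and 3 and 1 in Ccrl2 over CD163 in place of 3 and 0. No 2-fold call of a member was lost with median centring, no ceiling, a ceiling at the library median, unraised values or the mean over probe sets. Median centring added Nfkbie in Ccrl2 over CD163 (1.11) and Rela in CD74 over Trem2 (-1.02), and the settings that changed the ceiling added the Nfkb2 differences given above. No paired analysis was possible because each population gave 1 library. Values near the top of the scale limit Tnfaip3 and Nfkbia, and the ceiling limits Relb, Nfkb2 and the CD74 values of Nfkbib and Nfkbie.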
